A study of Mus musculus with 24 samples.

Results

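Banp (entry ENSMUSG00000025316, chromosome 8) is 1 of 37621 gene entries counted in total RNA of 4 brain regions from Cdr1as knockout and wild-type mice. It was chosen by its identifier after its values in these libraries were known: its level in knockout against wild type in each region, and its level across regions. Those values are therefore given as a description, with no test. The 8 groups were knockout and wild-type cerebellum, cortex, hippocampus and olfactory bulb, each dissected from C57BL/6 mice and each with 3 libraries, 24 in all. Cdr1as, which the knockout mice lack, is a neuronal circular RNA densely bound by miR-7, and the wild-type mice carry it. The labels give no age, sex, breeding scheme or knockout line. They do not say whether a library is 1 animal, so the spread between libraries may not be that between animals. Any 2 libraries of a group differed by a chi-square per degree of freedom of 11.7 to 83.7, more than the sampling of reads gives.

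BANP, also named SMAR1 or BEND1, is a nuclear protein with a BEN domain, a DNA-binding fold that it shares with the other BEND proteins and with NACC1 and NACC2. It was first described as a partner of the growth-arrest protein BTG3 and as a protein of the nuclear matrix that binds matrix attachment regions, stretches of DNA that anchor chromatin loops. It has been reported to work with p53 and with the corepressors HDAC1 and SIN3A. It also binds the CGCG element, a palindrome found in promoters of broadly active genes, when that element is not methylated.

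The sequences shown here are the seeds of the microRNAs tied to Cdr1as and the element that BANP binds, because miR-7 and miR-671 are known to bind Cdr1as and the element is known to be bound by BANP. Whether either bears on the Banp values was not tested. The mature microRNAs, from RefSeq (GRCm38.p6), carry their seed, bases 2 to 8, in capitals.
mmu-miR-7a-5p: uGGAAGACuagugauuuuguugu
mmu-miR-671-5p: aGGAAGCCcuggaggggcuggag
The match to the miR-7 seed, GTCTTCC, occurred in none of the 6 annotated Banp transcripts with a complete 3′ untranslated region (GENCODE M21, transcript strand), the longest of which has 3623 bases. It occurred in the longest such region of 2720 of 21173 genes (12.8%). The match to the miR-671-5p seed, GGCTTCC, was likewise in none of the 6, against 13.2% of genes. This says only that these letters are not in these windows.

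The core of the CGCG element, CTCGCGAG, reads the same on both strands. It was in 302 of 32851 RefSeq promoter windows (0.919%), which run from 250 bases before to 50 after a gene's start. The table holds no window for Banp. The following stretches, in gene direction with the core in capitals, are those of the genes named further on for their values.
Atad3aos (GRCm38.p6, chr4:155761034-155761073, plus strand): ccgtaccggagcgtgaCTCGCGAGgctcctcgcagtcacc
Nrde2 (GRCm38.p6, chr12:100159660-100159699, minus strand): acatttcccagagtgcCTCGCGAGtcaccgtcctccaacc
Mapk14 (chr17:28691253-28691292, plus strand): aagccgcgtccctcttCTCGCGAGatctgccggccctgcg
Map10 (chr8:125669768-125669807, plus strand): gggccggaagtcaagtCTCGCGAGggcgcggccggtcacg
Sobp (chr10:43174656-43174695, minus strand): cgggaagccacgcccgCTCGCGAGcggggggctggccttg
Tiparp (chr3:65528197-65528223, plus strand): ccgCTCGCGAGcggacactcccctccc

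Banp was higher in every knockout library than in every wild-type library of the same region, in all 4 regions, by a mean of 1.59-fold. Levels are in CPM, the reads of a gene per 10 to the power 6 gene counts, scaled by TMM over the 24 libraries. In the cerebellum Banp had 73.4, 60.0 and 72.7 CPM in knockout libraries 1 to 3, against 43.0, 38.2 and 44.4 CPM in wild-type libraries 1 to 3. The lowest knockout library was 1.35 times the highest wild-type one. In the cortex Banp had 41.6, 47.0 and 46.5 CPM in knockout, against 31.6, 25.3 and 27.2 CPM in wild type. Here the lowest knockout library was 1.32 times the highest wild-type one.

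The hippocampus and olfactory bulb gave the same picture for Banp. In the hippocampus it had 54.0, 49.5 and 58.5 CPM in knockout, against 41.9, 32.4 and 35.9 CPM in wild type. The gap was narrowest here, with the lowest knockout library at 1.18 times the highest wild-type one. In the olfactory bulb it had 51.0, 46.7 and 55.0 CPM in knockout, against 28.8, 28.8 and 34.1 CPM in wild type, and the lowest knockout library was 1.37 times the highest wild-type one. Without scaling, all knockout libraries also lay above those of wild type: the lowest knockout and highest wild-type values were 61.6 and 44.4 CPM (cerebellum), 36.8 and 29.0 CPM (cortex), 49.1 and 39.1 CPM (hippocampus), and 51.4 and 36.6 CPM (olfactory bulb). Because these are bulk samples, more Banp RNA per cell and more cells that express it cannot be told apart.

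**Figure D1:**
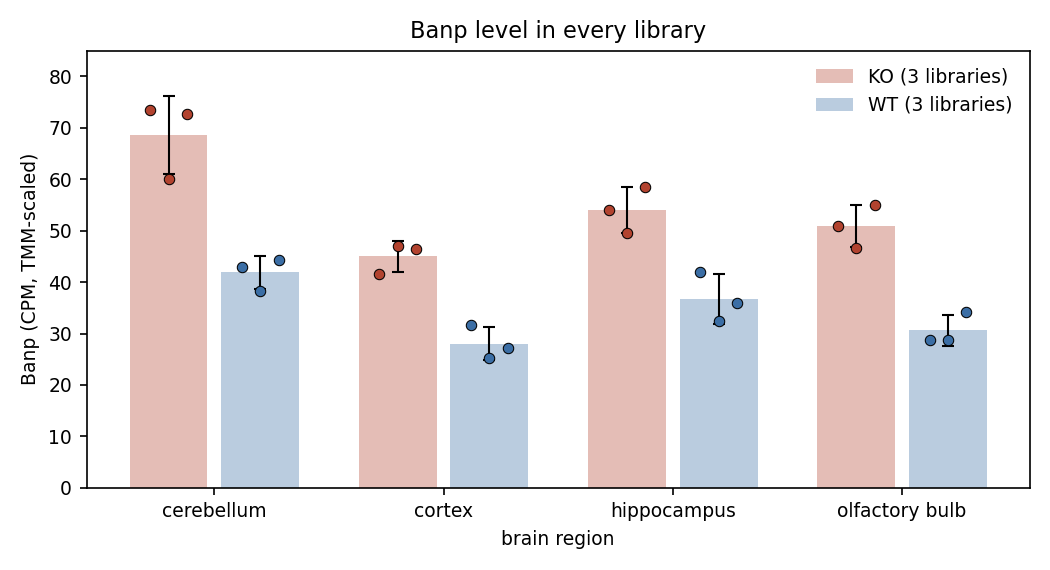
Banp level in CPM (vertical axis) in each of the 4 brain regions (horizontal axis); points are single libraries, bars are means and error bars are SD over 3 libraries, with knockout left of wild type. The knockout libraries span 41.6 to 73.4 CPM and the wild-type libraries 25.3 to 44.4 CPM, with no overlap inside any region.

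The fold change of Banp was of similar size in the 4 regions. Knockout against wild type gave a mean of 68.7 ± 7.58 against 41.9 ± 3.28 CPM in the cerebellum, a log2 fold change of 0.72 (SE 0.12). In the cortex the means were 45.0 ± 2.97 and 28.0 ± 3.21 CPM (log2 fold change 0.66, SE 0.14), and in the hippocampus 54.0 ± 4.46 and 36.7 ± 4.8 CPM (0.56, SE 0.12). In the olfactory bulb they were 50.9 ± 4.13 and 30.6 ± 3.03 CPM (0.73, SE 0.14; SD, n = 3 in each group). These correspond to 1.65, 1.59, 1.47 and 1.66-fold higher levels. The highest and lowest of the 4 log2 fold changes differed by 0.17, close to the SE of a single one, and that difference was not tested. In 1 fit of all 24 libraries the mean of the 4 was 0.67 (SE 0.07), and 0.67 (SE 0.06) without the 3 libraries of lowest depth, a fit added after the data were seen. Both SEs treat the regions as independent. They may be too small if regions share animals, which is not given.

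The depth behind Banp was 230 to 1317 reads per library. Counting error alone was 2.76% to 6.59% of the value, while the SD between libraries of 1 group was 6.59% to 13.1% of the mean. Banp lay at the 66.0th percentile of wild-type log2 CPM among the genes of the 24-library fit. Counting error was thus at or below the spread between libraries.

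Set beside all genes, every knockout library lay above every wild-type library for 4.31% of 15536 genes tested in the cerebellum, 6.94% of 15777 in the cortex, 5.03% of 16119 in the hippocampus and 6.25% of 15831 in the olfactory bulb. Of 14411 genes tested in all 4 regions, 20 (0.139%) did so in all of them, Banp among them, and 6 lay below in all of them. By the smallest of its 4 log2 fold changes (0.56) Banp stood at rank 6 of the 20, between Dnase1l2 (0.57), an enzyme that cuts DNA, and Nr4a3 (0.55), an orphan nuclear receptor of the early response. An absolute log2 fold change at least as large as that of Banp was seen for 8.14% of genes in the cerebellum, 3.9% in the cortex, 5.11% in the hippocampus and 9.91% in the olfactory bulb. Banp was picked from these contrasts, so nothing further is read from its place.

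Tests over all genes (edgeR, quasi-likelihood F-test, adjusted p under 0.05) called 1 gene (0.00644%) in the cerebellum, 1 (0.00634%) in the cortex, 1 (0.0062%) in the hippocampus and 4 (0.0253%) in the olfactory bulb. Egr3, Fosb and Fosl2, early response factors, were the others in the olfactory bulb. Cdr1as was called in each: it averaged 0.234 ± 0.232 CPM in knockout and 4131 ± 236 in wild-type cerebellum, and the knockout means of the other regions lay at 0.307 to 0.564 CPM, against 510 to 984 CPM in wild type. The count was 3 in the cerebellum without knockout 1, 3 in the cortex and 47 in the hippocampus without wild type 2. In the olfactory bulb it was 1 without knockout 3, wild type 1 or wild type 2, and 8 without wild type 3. With the replicate number as a block it was 33 in the cortex. An unadjusted p under 0.05 was found for 293, 890, 646 and 384 genes in the cerebellum, cortex, hippocampus and olfactory bulb, and DESeq2 called 19, 41, 16 and 17.

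Across regions Banp kept 1 order of means in both genotypes, cerebellum, hippocampus, olfactory bulb and cortex from high to low. The knockout means ran from 68.7 CPM in the cerebellum to 45.0 in the cortex, a ratio of 1.53, and the wild-type means from 41.9 to 28.0, a ratio of 1.49. In knockout the cerebellar libraries (60.0 to 73.4 CPM) did not overlap the hippocampal ones (49.5 to 58.5 CPM), while hippocampus and olfactory bulb, and olfactory bulb and cortex, did overlap. In wild type each pair of neighbours in the order overlapped, so those steps are not larger than the spread between libraries. As a log2 difference from the mean of the other 3 regions, Banp was 0.46 (SE 0.10) in knockout and 0.41 (SE 0.11) in wild-type cerebellum, and −0.37 (SE 0.11) and −0.36 (SE 0.11) in the cortex. In the hippocampus it was 0.00 (SE 0.10) in knockout and 0.13 (SE 0.11) in wild type, and in the olfactory bulb −0.09 (SE 0.10) and −0.17 (SE 0.11). The ratio of the highest to the lowest region mean within a genotype was thus near the 1.47 to 1.66-fold ratios between genotypes within a region. Of the 12 knockout libraries, 11 had more Banp than every wild-type library of any region, and 9 of the 12 wild-type libraries had less than every knockout library.

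Banp has 16 annotated transcripts (GENCODE M21), 8 of them protein-coding, 4 with a retained intron, 2 subject to nonsense-mediated decay and 2 processed transcripts, over 6.63 kb of merged exon. The counts are 1 value per gene, so they do not say which of these transcripts was higher. Gm27011, annotated on the other strand as a bidirectional-promoter long non-coding RNA, shares 252 bases with Banp exons and has no entry of its own. Whether the counting used strand is not given in the sources used here, so its reads may be part of the Banp value. Gm20388, an annotated gene that spans Banp without sharing exon bases, had 0 reads in all 24 libraries, and the pseudogene Gm17709 within the span of Banp had at most 3 reads in a library.

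The tested genes next to Banp on chromosome 8 were not called in any region. Slc7a5, a transporter of large neutral amino acids, had log2 fold changes of −0.14 (SE 0.13), −0.04 (SE 0.17), −0.01 (SE 0.11) and −0.39 (SE 0.19) in the cerebellum, cortex, hippocampus and olfactory bulb. Zfpm1, a cofactor of GATA factors on the other side of Banp, had 0.22 (SE 0.19), 0.16 (SE 0.23), 0.19 (SE 0.15) and −0.03 (SE 0.27). Zfp469 had 0.54 (SE 0.49), 0.46 (SE 0.22), 0.17 (SE 0.33) and −1.21 (SE 0.89), at 0 to 93 reads per library. By edgeR over all genes the lowest unadjusted p among them was 0.0653 (Slc7a5, olfactory bulb). Of the others, Trhr2 was tested in 3 regions, at −0.09 (SE 0.23), 0.37 (SE 0.65) and −0.08 (SE 0.99) in the cortex, hippocampus and olfactory bulb. Car5a and BC048644, the nearest, had at most 8 and 6 reads in a library and were not tested.

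**Figure D2:**
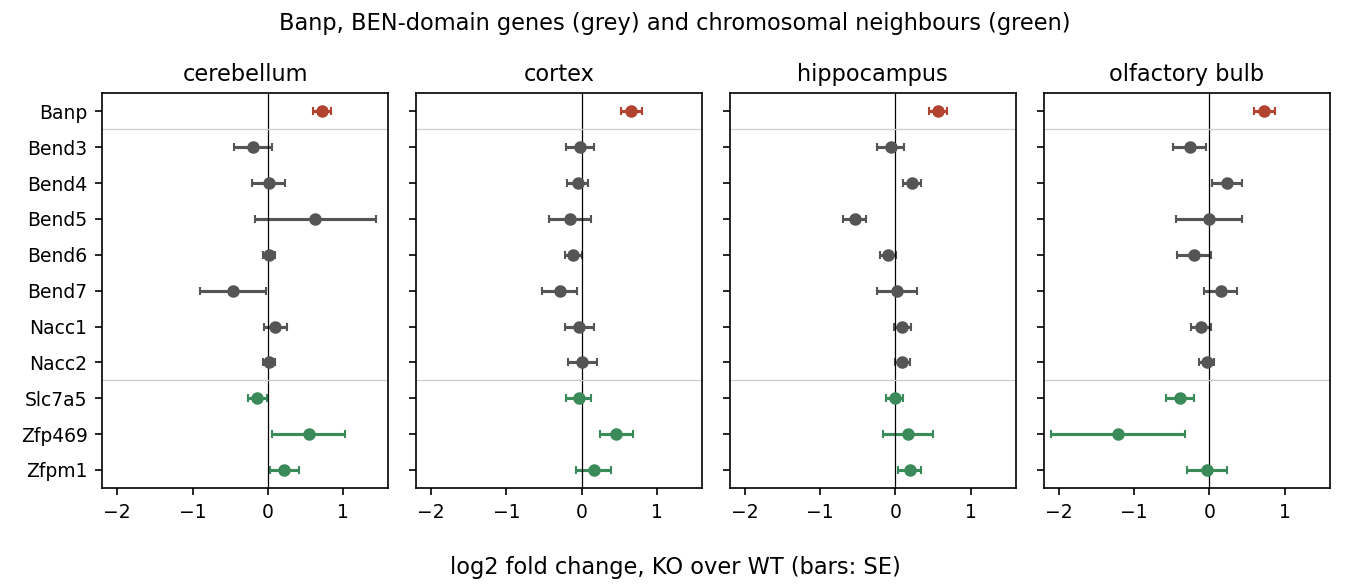
Log2 fold change of knockout over wild type (horizontal axis, bars are SE) in each region for Banp, the 7 other BEN-domain genes measured and 3 of its neighbours on chromosome 8. Banp lies between 0.56 and 0.73 in the 4 regions, and the 7 relatives between −0.54 and 0.63.

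The other genes with a BEN domain were not called in knockout against wild type. Of 8 relatives listed, Bend2 matched no entry and 7 were tested in every region, with 0 called and medians of 0.01, −0.05, 0.02 and −0.03 in the cerebellum, cortex, hippocampus and olfactory bulb. The medians of all genes tested were −0.04, 0.00, −0.02 and −0.01. Nacc1 and Nacc2, transcriptional repressors with an added BTB domain and the highest counts of these with Bend6, lay between −0.11 and 0.10 in every region. Bend5 in the hippocampus was the only relative with an unadjusted p under 0.05, at 7.09 ± 0.269 CPM in knockout and 10.3 ± 0.8 CPM in wild type (log2 fold change −0.54, SE 0.15, adjusted p = 0.953). DESeq2 and the fit with the replicate block called 0 of the 7 in any region.

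In wild-type brain Banp stood at rank 4 of these 8 genes by level per kb of exon, and its means in the 4 regions spanned a narrower ratio than those of each relative but Nacc1. Over the 12 wild-type libraries it averaged 5.17 CPM per kb, below Bend6 (28.3), Nacc1 (25.5) and Nacc2 (22.4) and above Bend5 (3.24), Bend4 (2.37), Bend3 (1.6) and Bend7 (1.33). The relatives could be tested across regions, each region against the mean of the other 3 in wild type. Called were 6 of 7 in the cerebellum, where 46.8% of all genes were called, 2 in the cortex (33.4% of all), 5 in the hippocampus (25.9%) and 5 in the olfactory bulb (35.9%). Bend6 was higher in the cerebellum (log2 difference 1.29, SE 0.12, adjusted p = 6.04e-07, edgeR) and lower in the olfactory bulb (−1.54, SE 0.14, adjusted p = 9.90e-07). Bend7 was higher in the olfactory bulb (2.18, SE 0.18, adjusted p = 3.18e-07), and Bend5 (−2.74, SE 0.27, adjusted p = 1.37e-06) and Bend4 (−1.69, SE 0.16, adjusted p = 8.40e-07) were lower in the cerebellum. Nacc1 was called in no region with all libraries. Without wild type 2 it was called in the cortex (0.41, SE 0.10, adjusted p = 0.00476, edgeR). Bend4 was also called there without that library (0.45, SE 0.15, adjusted p = 0.0313). Single left-out libraries ended the calls of Bend3 in the cerebellum (wild type 1 or 3) and olfactory bulb (2), Bend4 and Bend6 in the hippocampus (2 or 3), Bend7 in the cerebellum (any) and Nacc2 in the olfactory bulb (3). The values for Banp on the same scale were 0.41, −0.36, 0.13 and −0.17, of which that in the cortex lay below those of all 7 relatives (−0.30 in Bend7 to 1.27 in Bend5). There Banp (SE 0.11) and Bend7 (SE 0.20) lay closer than the SE of either, so their order is not resolved, and it was not tested.

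**Figure D3:**
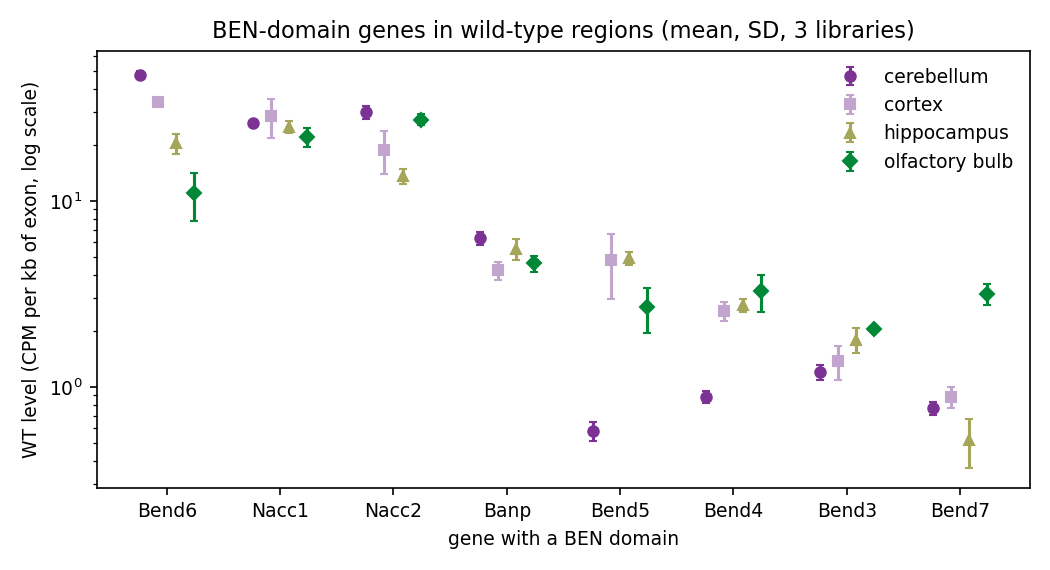
Wild-type level in CPM per kb of merged exon (vertical axis, log scale) of Banp and 7 other BEN-domain genes in 4 regions; symbols are means and bars SD over 3 libraries. Banp runs from 4.23 in the cortex to 6.31 in the cerebellum, a narrower span than that of Bend4, Bend5, Bend6 or Bend7.

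No gene was called by edgeR or DESeq2 in any region among 11 described partners (10 tested in the cerebellum and the olfactory bulb), with medians of −0.07, −0.09, −0.06 and 0.05. None of these had an unadjusted p under 0.05. Values with the smallest p of their region included those of the corepressor subunit gene Sap18 (−0.34, SE 0.24) and the cyclin D1 gene Ccnd1 (−0.47, SE 0.42) in the cerebellum, which were −0.10 and −0.10 without knockout 1, a library of low depth. Ccnd1 was at 0.56 (SE 0.32) in the olfactory bulb, and at 0.23 in 1 fit without the 3 libraries of lowest depth. Hdac2, a deacetylase, was at −0.26 (SE 0.14) in the cortex. Trp53, which encodes p53, averaged 17.4 ± 0.309 CPM in knockout and 14.5 ± 1.86 CPM in wild-type cortex (log2 fold change 0.25, SE 0.15, adjusted p = 0.858). Hdac1, the deacetylase of the corepressor, averaged 36.9 ± 3.64 CPM in knockout and 31.2 ± 1.52 CPM in wild-type olfactory bulb (0.22, SE 0.15, adjusted p = 0.992).

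Other binders of matrix attachment regions and readers of CpG sites were not called in any region by edgeR or DESeq2. Of 17 matrix binders (16 tested in the cerebellum), 0, 6, 0 and 1 had an unadjusted p under 0.05 in the cerebellum, cortex, hippocampus and olfactory bulb. These are 0%, 35.3%, 0% and 5.88% of those tested, against 1.89%, 5.64%, 4.01% and 2.43% of all genes. In the cortex the RNA-binding matrix protein gene Matr3 (−0.45, SE 0.14) and the lamin gene Lmna (0.49, SE 0.16) had the smallest p, and in the olfactory bulb Safb, a scaffold attachment factor, did (0.24, SE 0.09). Of 21 readers and writers of CpG sites (20 in the cerebellum), 0, 1, 0 and 1 had an unadjusted p under 0.05 (0%, 4.76%, 0% and 4.76%, beside the same shares of all genes). These were Tet3 in the cortex (0.44, SE 0.11) and Tet1 in the olfactory bulb (−0.32, SE 0.12), enzymes that oxidise methylated cytosine.

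Targets of p53, whose activity BANP is described to modulate, were not called by edgeR or DESeq2 either. Of 24, 24, 24 and 23 tested, 0, 4, 1 and 2 had an unadjusted p under 0.05 (0%, 16.7%, 4.17% and 8.7%, against 1.89%, 5.64%, 4.01% and 2.43% of all genes), and medians were −0.11, 0.03, −0.05 and 0.00. Btg2, which is also an early response gene and a relative of Btg3, averaged 33.8 ± 9.06 CPM in knockout and 15.9 ± 5.57 CPM in wild-type cortex (log2 fold change 1.07, SE 0.30, adjusted p = 0.858, and adjusted p = 0.00228 with the replicate block). Its log2 fold change was 0.92 (SE 0.23) in the hippocampus and 0.85 (SE 0.29) in the olfactory bulb, with an unadjusted p under 0.05 in both. The value for Btg2 in the olfactory bulb was 0.41 (SE 0.32) in 1 fit without the 3 libraries of lowest depth. In the cerebellum Btg2 was at 0.25 (SE 0.16). Gadd45a, a stress sensor, had 0.81 (SE 0.21) in the cortex, and Plk2, a polo-like kinase, 0.60 (SE 0.15) in the olfactory bulb.

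Genes with the CGCG core in their promoter had median log2 fold changes within 0.03 of those of all genes. Of 245 such genes in the count tables, 223 to 226 were tested per region and none was called by edgeR. Their median log2 fold change was −0.06 in the cerebellum, −0.03 in the cortex, −0.02 in the hippocampus and −0.01 in the olfactory bulb, against −0.04, 0.00, −0.02 and −0.01 for all genes. Higher in knockout were 37.7%, 44.6%, 41.2% and 48.4% of them, against 43.1%, 50.1%, 46.2% and 47.8% of all genes. An unadjusted p under 0.05 was found for 5, 13, 5 and 6 (2.24%, 5.8%, 2.21% and 2.69%, against 1.89%, 5.64%, 4.01% and 2.43% of all genes). A part of these genes has a longer match, the core with 1 given base more on each side. Of 113 to 115 such genes tested per region, 31.6%, 41.2%, 39.1% and 46.9% were higher in knockout. Their medians were −0.07, −0.06, −0.03 and −0.01, so the cortex lay further from all genes (0.00) than with the core alone. These differences were not tested.

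A few genes with the core in their promoter, printed above, stood out by the smallest p. Nrde2, a factor of nuclear RNA surveillance, averaged 16.8 ± 0.317 CPM in knockout and 26.2 ± 1.51 CPM in wild-type cerebellum (log2 fold change −0.63, SE 0.13, adjusted p = 0.949 in edgeR and 0.04 in DESeq2). Tiparp, an ADP-ribosyltransferase, averaged 86.1 ± 12.2 CPM in knockout and 50.3 ± 9.19 CPM in wild-type olfactory bulb (0.77, SE 0.17, adjusted p = 0.992 in edgeR, 0.00354 in edgeR with no filter on low counts and 0.0463 in DESeq2), and lay at 0.66 (SE 0.21) in the cortex and 0.54 (SE 0.18) in the hippocampus. Mapk14, the stress kinase p38 alpha, was at 0.24 (SE 0.09) in the cerebellum, Map10 at −0.79 (SE 0.23) in the cortex, the low-count opposite-strand transcript Atad3aos at 0.94 (SE 0.29) in the hippocampus and Sobp at 0.36 (SE 0.11) in the olfactory bulb. Their signs differ between genes.

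**Figure D4:**
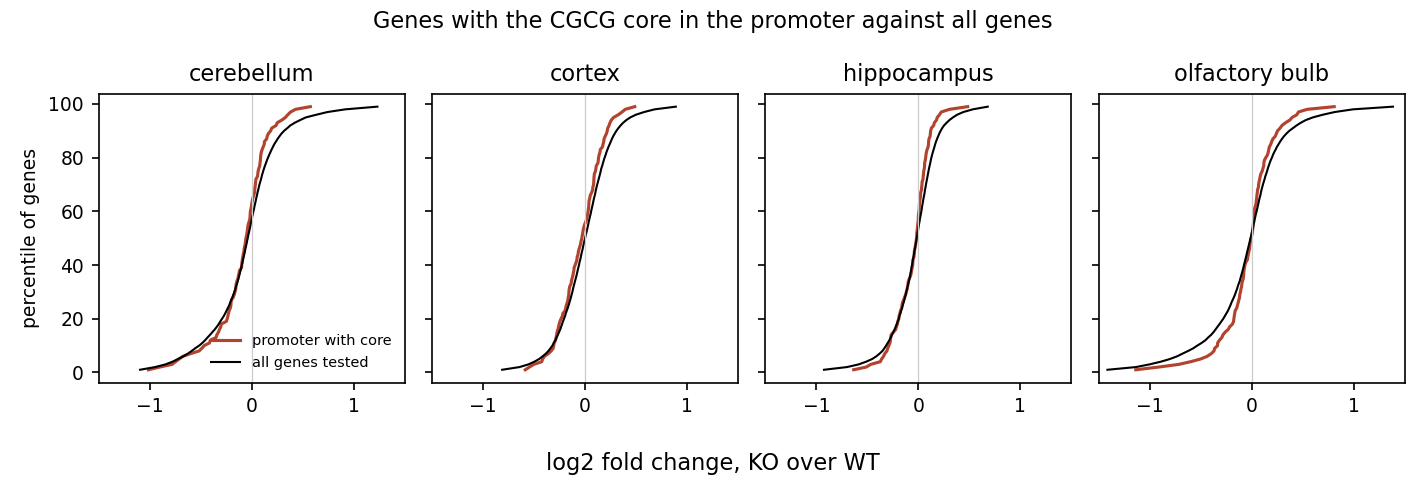
Percentile of genes (vertical axis) by log2 fold change of knockout over wild type (horizontal axis) in each region, for genes with the CGCG core in the promoter (red) and all genes tested (black). From left to right the medians of core genes are −0.06, −0.03, −0.02 and −0.01, and those of all genes −0.04, 0.00, −0.02 and −0.01. In the first 3 regions the core genes reach 0 at a higher percentile than all genes.

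The genes whose levels were most like that of Banp were Sik1, Jmjd6, Nr4a3, Fos and Per1. Likeness was Pearson's r of log2 CPM with Banp over the 24 libraries, after the region mean had been taken from each gene, among 13208 genes with a mean log2 CPM of at least 1. In order these were Sik1, a kinase induced by cAMP (r = 0.90), Jmjd6, a nuclear hydroxylase (0.89), Nr4a3 (0.89), Fos, a subunit of AP-1 (0.86), and Per1, a clock repressor (0.84). The libraries fall into a knockout and a wild-type cluster, and these values include that split. Within a genotype, r was taken after the mean of each region in that genotype alone had been removed. Within the 12 knockout libraries this r was 0.35, 0.50, 0.14, −0.15 and −0.06 for Sik1, Jmjd6, Nr4a3, Fos and Per1. Within the 12 wild-type libraries it was 0.55, 0.49, 0.77, 0.43 and 0.31. Jmjd6 had a similar r in both genotypes, while Fos and Per1 had r at or below 0 among the knockout libraries. These values within a genotype were added after the data were seen.

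The sizes of the differences varied among these genes. Those of Banp, as log2 fold changes, ran from 0.56 to 0.73. Those of Jmjd6 were 0.49, 0.51, 0.18 and 0.40 in the cerebellum, cortex, hippocampus and olfactory bulb, those of Sik1 0.70, 1.02, 0.58 and 0.76, and those of Fos 2.27, 1.75, 1.68 and 1.70. Those of Per1 were 0.52, 0.94, 0.55 and 0.95, and those of Nr4a3 1.96, 0.99, 0.55 and 2.45. Jmjd6, Sik1 and Per1 lay nearer to Banp than Fos in every region. Over the 12 wild-type libraries alone, with regions left in, the genes most like Banp were Slc14a1 (r = 0.94), Fam173a (0.93), Bcl6 (0.92), Pqlc1 (0.91) and Pex16 (0.91). These r values describe levels that share libraries and regions, and no p is given. None of these 5 had the knockout libraries above the wild-type ones in more than 1 region.

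**Figure D5:**
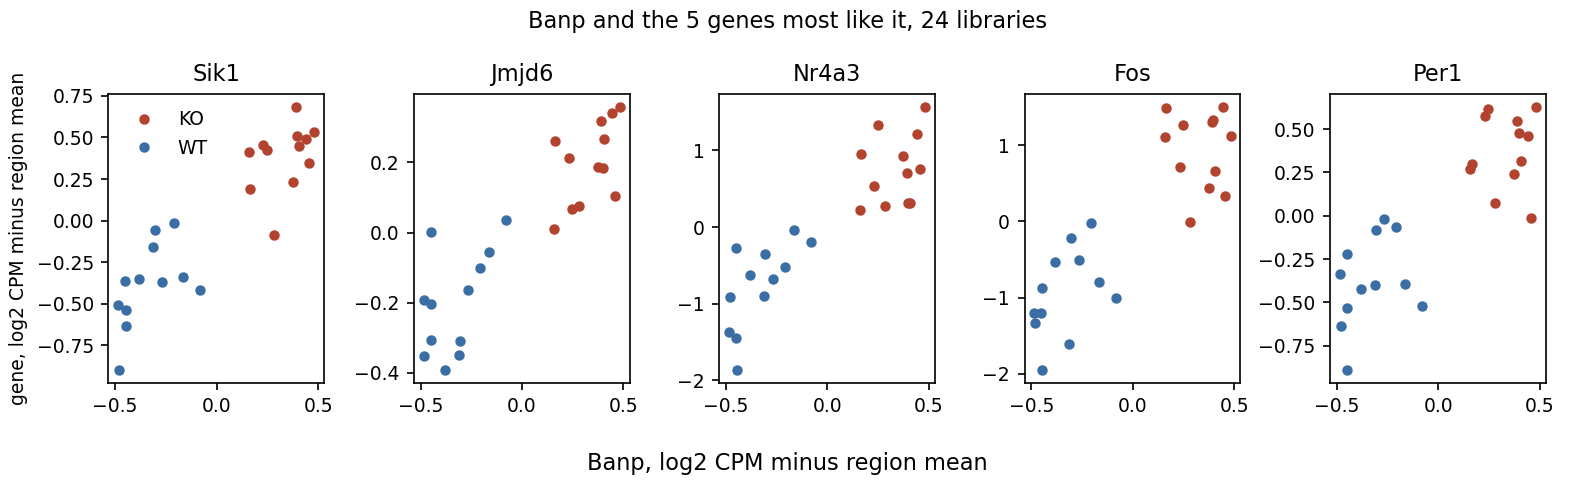
Log2 CPM minus the region mean of Banp (horizontal axes) and of the 5 genes most like it (vertical axes) in 24 libraries, knockout in red and wild type in blue. The genotypes are apart along the Banp axis, by which Banp was chosen, while Sik1 and Jmjd6 overlap between genotypes on their own axes. Among the knockout libraries r with Banp is highest for Jmjd6, at 0.50. That r is taken after the mean of each region in knockout alone is removed, which is not what is drawn.

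The libraries held 5.18 M to 30.46 M gene counts (M, 10 to the power 6), and 20.3% to 62.9% of all entries were reads in no annotated feature. In the cerebellum that share was 55.8% to 61.5% in knockout and 53.7% to 60.2% in wild type, in the cortex 30.5% to 53.7% in knockout and 20.3% to 56.2% in wild type, in the hippocampus 48.3% to 55.4% in knockout and 37.0% to 52.6% in wild type. In the olfactory bulb it was 52.3% to 62.9% in knockout and 58.7% to 62.9% in wild type. With this share as a covariate, a fit added after the data were seen, the log2 fold change of Banp was 0.79 (SE 0.11), 0.68 (SE 0.12), 0.66 (SE 0.10) and 0.71 (SE 0.15) in the same order of regions. Markers matched the labelled regions, with summed levels of at least 2417, 725, 389 and 916 CPM in the cerebellum, cortex, hippocampus and olfactory bulb, against at most 129, 460, 115 and 72.5 CPM elsewhere. Neuron, astrocyte, oligodendrocyte and microglia markers (6, 6, 8 and 8 genes) had summed levels that overlapped between genotypes in all 4 regions.

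Some marker lists did separate the genotypes in single regions where Banp did. The 7 olfactory bulb markers summed to 60.1 to 72.5 CPM in knockout and 24.3 to 35.2 CPM in wild-type cerebellum, and in the opposite direction to 19.4 to 20.9 CPM in knockout and 31.4 to 59.0 CPM in wild-type cortex. The 6 cerebellum markers summed to 26.5 to 31.8 CPM in knockout and 38.3 to 62.6 CPM in wild-type cortex, and the 10 choroid plexus markers to 28.5 to 33.5 CPM in knockout and 43.2 to 51.8 CPM in wild-type olfactory bulb. In the hippocampus the choroid plexus markers summed to 39.1 to 45.3 CPM in knockout and 37.9 to 2404 CPM in wild type, and the log2 fold change of Banp there was 0.49 to 0.66 with each library left out in turn. No member of these lists was at 0 in all libraries of 1 of these regions, while zeros in single libraries were not counted. The filter on low counts passed 3 of the 7 olfactory bulb markers in the cerebellum and 6 in the cortex. It passed 3 of the 6 cerebellum markers in the cortex and 4 of the 10 choroid plexus markers in the olfactory bulb. In the hippocampus none of the 10 lists separated the genotypes by their sums, but 0 of 8 choroid plexus markers tested (median log2 fold change −3.83) and 0 of 10 meninges markers (median −0.43) had a positive log2 fold change. Of choroid plexus markers tested in the cerebellum, cortex and olfactory bulb, 1 of 10, 2 of 10 and 1 of 4 were positive. Their medians there were −0.87, −0.24 and −0.69. Among 10 meninges markers, 8, 2 and 4 were positive in those regions. For 8 oligodendrocyte markers it was 2, 1, 1 and 5 in the cerebellum, cortex, hippocampus and olfactory bulb. Of all genes tested, 43.1%, 50.1%, 46.2% and 47.8% were positive there. The part of these markers in the Banp values was not tested.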

How the data were processed

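Total RNA was extracted with TRIzol, depleted of ribosomal RNA by an RNase H method and made into stranded libraries, per the labels' protocols. The values deposited by the authors are raw read counts per gene. bcl2fastq 2.17.1.14, STAR 2.5.1b, HTSeq 0.6.1p1 and the mm9 build appear in the submitters' processing notes, with no role or strand setting. Summary entries were left out. GENCODE M21 (GRCm38) named 32898 of 37621 entries and gave exon lengths, so no coordinates of counted genes are printed.

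Tests ran on the counts in edgeR 4.0.16 under R 4.3.3: TMM scaling, a robust quasi-likelihood fit, its F-test and filterByExpr (minimum count 10), two-sided, with Benjamini-Hochberg adjustment over all genes tested and a threshold of 0.05. DESeq2 1.42.0, other scalings, no filter, 1 fit of all libraries, a replicate block and left-out libraries were alternatives. The fit was tested on simulated cortex counts with changes larger than that of Banp, which does not show how it performs at smaller changes. Genotypes were compared within a region (3 against 3 libraries) and regions within wild type (12 libraries); whether regions share animals is not given. Log2 CPM used a prior count of 2. Banp and the gene lists were chosen with earlier results of these data known. Named genes were Banp, Cdr1as, BEN-family genes, the 3 neighbours on each side, up to 4 called members of each other list (else the 2 with the smallest p, of which those printed are a part) and the 5 genes most like Banp on each of 2 measures. Dnase1l2, beside Banp in rank, was named after its value was seen.

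Deviations from the group means of same-numbered libraries correlated across genes at 0.399, 0.532 and 0.104 in the cortex. For cortex knockout 3 the value was larger with library 1 of wild type (0.288), a different number. These values therefore do not settle whether the numbers pair the libraries there, and the block was used only as an alternative. In the other regions at least 1 value of same-numbered libraries was under 0.1.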

Additional observations from a re-analysis of the deposited data

Results flagged for a closer look

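Gadd45a, a p53 target, had a log2 fold change of 0.81 in the cortex and −0.42 in the cerebellum, with every knockout library above every wild-type library in the cortex and below in the cerebellum. Gadd45a was called in neither region by edgeR (adjusted p = 0.858 in the cortex, at 7.19 CPM in knockout and 4.04 CPM in wild type). In the cortex 6.94% of all genes tested had every knockout library above every wild-type one. The share lying below in the cerebellum was not counted. Gadd45a was picked out because these effects point in opposite directions, 1.23 apart on the log2 scale, and that difference was not tested. Groups of 3 libraries are too small for a check of single outlying libraries.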

How the results depend on the processing

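The log2 fold change of Banp was above 0 in all 57 alternative values, from 0.49 to 0.81, and none moved by more than the spread between replicates. Leaving out 1 library gave 0.66 to 0.81 in the cerebellum, 0.60 to 0.77 in the cortex, 0.49 to 0.66 in the hippocampus and 0.66 to 0.81 in the olfactory bulb. These left-out fits could not turn the sign, since every knockout library lay above every wild-type library of its region. Banp was also picked from these same values, so they show the size of the difference and are no support for it. With the replicate block it was 0.73, 0.67, 0.57 and 0.73. The difference of each region from the others in wild type likewise kept its sign, at 0.38 to 0.48, −0.45 to −0.29, 0.03 to 0.20 and −0.27 to −0.13 without single libraries. The number of genes called in knockout against wild type did depend on the settings, and the cause was not tested. In the cerebellum, cortex, hippocampus and olfactory bulb it was 3, 7, 5 and 16 with no filter, 19, 41, 16 and 17 with DESeq2, and 4, 6, 2 and 7 in 1 fit of all 24 libraries. With the replicate block it was 33 in the cortex, 7 in the hippocampus and 12 in the olfactory bulb. Whether the number pairs libraries in any region is not known. The block changed no call of a named gene except Btg2 and Bend4 in the cortex. Alternatives added after the data were seen gave 79 and 2 in the cortex and hippocampus (no-feature share as covariate) and 7 and 35 in the cerebellum and cortex (without the 3 shallow libraries). Without single libraries the counts ran from 1 to 3, 1 to 3, 1 to 47 and 1 to 8. None of 788 alternative values of the other results turned a call round, while 15 lost a call and 8 gained one. List genes and neighbours had no call in knockout against wild type in the main fit, so there none could turn round. With 1 more base on each side of the core, medians were −0.07, −0.06, −0.03 and −0.01, against −0.04, 0.00, −0.02 and −0.01 for all genes. Tests of regions in knockout in place of wild type ended calls of Bend3 in the olfactory bulb and Bend5 in the cortex and hippocampus. They added a call of Nacc1 in the olfactory bulb (−0.40, SE 0.14, adjusted p = 0.0391, edgeR). The lowest depth, 5.18 M counts, limits low genes such as Bend7 more than Banp.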
